A study of Mus musculus with 10 samples.

Results

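The genes described here are 10 genes of the NF-kB pathway, measured in macrophages sorted from drug-resistant mouse melanomas. They were taken by symbol from the deposited gene counts and fall into 3 roles. The cytokines and chemokines are Tnf, Il6, Cxcl1, Cxcl2 and Cxcl3, the feedback inhibitors are Nfkbia, Nfkbiz and Tnfaip3, and the NF-kB subunits are Nfkb1 and Relb. All 10 matched exactly 1 of the 55359 gene identifiers in the files, and all 10 were among the 14374 genes with enough counts to be tested.

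RNA was sequenced in bulk from F4/80+ cells, F4/80 being a surface protein of mouse macrophages, sorted from Braf-mutant melanomas that had rebounded while the mice received Braf and Mek inhibitors every day. The 5 Ccr2 knockout libraries came from male mice that carry an RFP allele on both copies of Ccr2, a chemokine receptor that inflammatory monocytes need to reach the blood and then tissue. The 5 control libraries came from male mice with 1 RFP allele and 1 working Ccr2 allele. Their titles call them wild type, but their genotype label reads Control (Ccr2RFP/+), so every animal carried at least 1 RFP allele, received both inhibitors, and no group had an intact pair of Ccr2 alleles or an untreated tumour. The labels do not say whether the libraries are separate animals, so a p-value here measures the spread between these libraries, which may in part be technical. Age, strain and the time of collection are not given in the labels.

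NF-kB is a family of paired transcription factors held inactive in the cytoplasm by IkB proteins. Signals from Toll-like receptors, the TNF receptor or the IL-1 receptor activate the IKK kinase, which marks IkB for destruction, and the freed dimers enter the nucleus and switch on cytokine genes. The same dimers switch on their own brakes, IkB alpha (Nfkbia) and A20 (Tnfaip3), so in macrophages the cytokine genes and the feedback genes are turned on by a shared signal, within minutes to hours. IkB zeta (Nfkbiz) is also induced this way and sits in the nucleus, where it restrains some target genes and is known as a coactivator of others, Il6 among them.

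Stretches upstream of 6 of the genes are shown because they hold the DNA word that NF-kB dimers bind, the kB consensus. The 250 bases before each start in RefSeq's promoter table (mouse build GRCm38.p6, whereas the counts were made on GRCm39) were searched for the consensus of 10 bases on both strands, and overlapping matches were merged. In each line the match is in capitals with up to 25 bases on either side, and the coordinates are those of GRCm38.p6.
Il6, chr5:30013045-30013104, plus strand: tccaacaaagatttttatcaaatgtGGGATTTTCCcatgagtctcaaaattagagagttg
Cxcl1, chr5:90891149-90891209, plus strand: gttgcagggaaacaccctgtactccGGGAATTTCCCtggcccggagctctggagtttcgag
Cxcl2, chr5:90903777-90903837, plus strand: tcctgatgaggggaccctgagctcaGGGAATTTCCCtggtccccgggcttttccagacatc
Cxcl3, chr5:90786003-90786063, plus strand: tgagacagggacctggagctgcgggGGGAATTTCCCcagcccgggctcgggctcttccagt
Nfkbia, chr12:55492648-55492701, minus strand: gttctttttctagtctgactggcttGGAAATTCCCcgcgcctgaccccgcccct
Tnfaip3, chr10:19015411-19015447, minus strand: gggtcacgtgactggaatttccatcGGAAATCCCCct

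Cxcl1, Cxcl2 and Cxcl3 lie on chromosome 5 and share the same 11 bases, GGGAATTTCCC, which begin 71, 97 and 73 bases before their starts. The match of Il6 begins 44 bases before its start, that of Nfkbia 29 bases and the one shown for Tnfaip3 12 bases. Tnfaip3 held another match, GGGACACCCC, that begins 125 bases before its start. Nfkbiz, Nfkb1 and Relb are not in the table. Tnf is in it, and its 250 bases held no match, which says only that these letters are not in this window. A match was therefore found for 6 of the 7 genes in the table, against 2225 of 27025 genes in all (8.23%). Among the lists described further on it was found for 4 of 7 other NF-kB subunits and IkB proteins (57.1%), 7 of 24 other NF-kB target genes (29.2%) and 6 of 20 early-response genes (30%). A match is a description of the sequence and not a measured binding site.

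The genotypes were separated by Ccr2 itself before any NF-kB gene was compared. It stood at 3.23 to 6.28 CPM in the Ccr2 knockout libraries and at 59.1 to 176.6 CPM in the control libraries, where CPM is edgeR's depth-scaled count, also scaled to library composition (log2 fold change -4.66, SE 0.33, edgeR adjusted p = 0.000139, exact two-sided permutation p = 0.00794, the smallest that 5 libraries against 5 allow). Libraries held 34639808 to 43360206 counts in genes. Of 18 core macrophage genes all 18 were detected in each library, with summed levels of 34910 to 44290 CPM in Ccr2 knockout and 33790 to 40520 CPM in control libraries. Adgre1, which encodes F4/80, averaged 1836 ± 188.5 CPM in Ccr2 knockout and 1826 ± 114 CPM in control libraries (SD, n = 5 each). Cd68, a lysosomal membrane protein of macrophages, was the 1 core gene that passed, with 1041 to 1341 CPM in Ccr2 knockout and 794 to 916 CPM in control libraries, so that the groups did not overlap (log2 fold change 0.49, SE 0.090, edgeR adjusted p = 0.0260), and DESeq2 and limma-voom called it too. In the control group, library 1 resembled library 2 and library 3 resembled library 4, with a median chi-square per gene of 2.80 and 2.71. The next closest pair crossed the genotypes, control library 3 with knockout library 2 (5.96). Within the control group the next was library 2 with library 3 (8.50). The values of 2.80 and 2.71 exceeded the 0.455 that sampling noise gives. That cannot show separate animals, since libraries of 1 animal can also differ by more than sampling noise. These libraries were counted separately, as the labels number them, and also summed as an alternative. With them summed, 29 of all genes passed between genotypes, against 203 with them counted separately. Knockout libraries 4 and 5 stood apart in 8 of the 10 NF-kB genes, all but Nfkb1 and Relb, and results for the 10 genes are given with and without them.

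No gene of the 10 passed the test between genotypes. In the edgeR quasi-likelihood test 0 of 10 passed an adjusted p of 0.05, against 203 of all 14374 genes (1.41%), and 0 of 10 had an unadjusted p below 0.05, against 2204 of all genes (15.3%). DESeq2 and limma-voom also called 0 of 10 after adjustment. With limma-voom 5 of 10, 2 cytokines and all 3 feedback inhibitors, had an unadjusted p below 0.05, against 3187 of all genes (22.2%). The log2 fold change was negative for 8 of the 10, against 7258 of all 14374 genes, with a median of -0.55 against -0.0034 over all genes. In 0 of 10 did the libraries of the genotypes separate without overlap, against 676 of all genes (4.7%). Part of the spread within the knockout group came from a pair of libraries. For all 5 cytokines and all 3 feedback inhibitors, but for neither subunit, Ccr2 knockout libraries 4 and 5 were the lowest pair among the 10 libraries, a position they held in 1011 of all genes (7.03%). These libraries were singled out with results already known, so that place is a description without a test. Fits without them are descriptions too. For the cytokines and feedback inhibitors, leaving out the lowest pair has to raise the knockout mean.

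**Figure D1:**
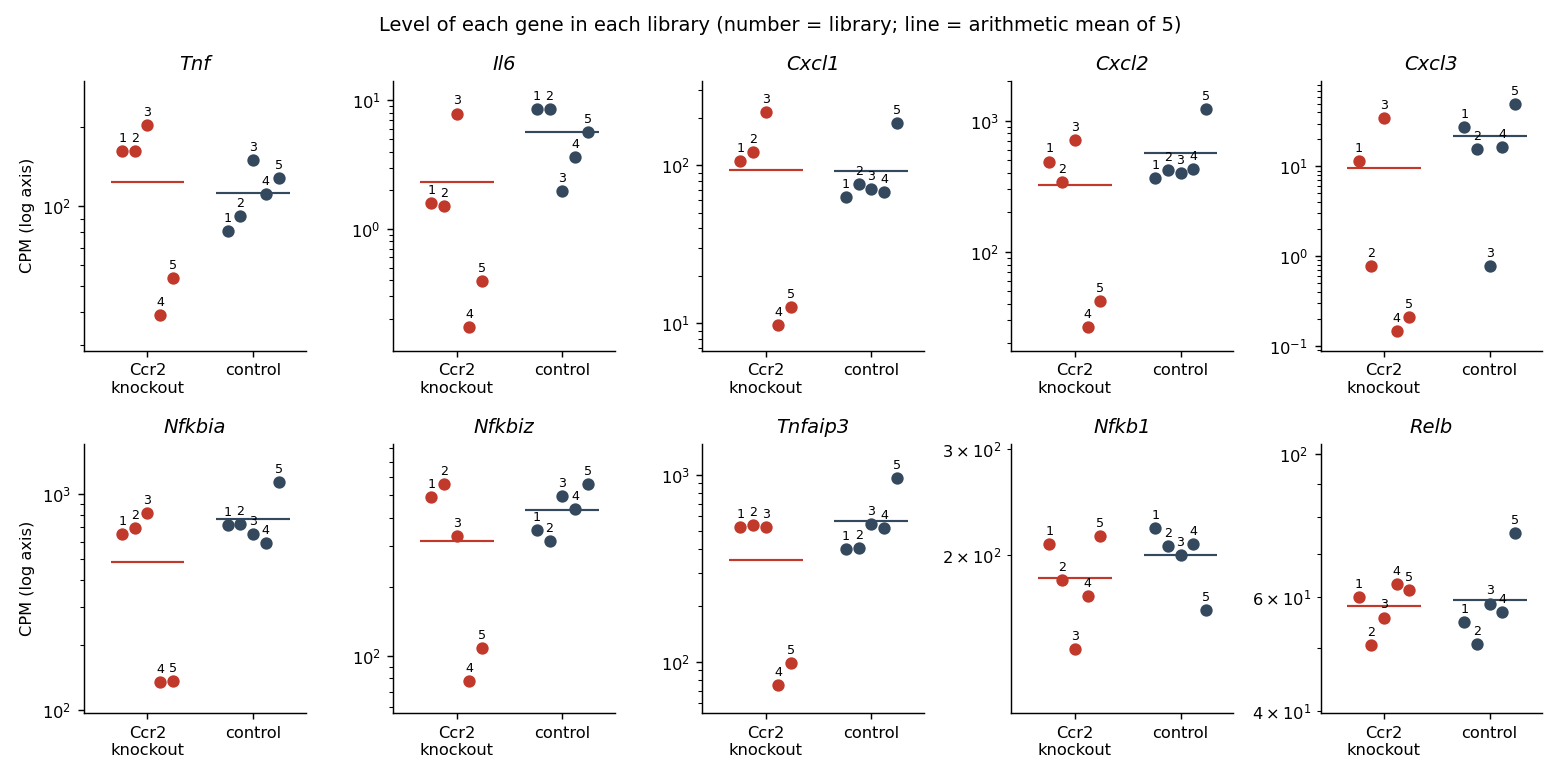
Level of each of the 10 genes in each library, as CPM on a log axis, for Ccr2 knockout libraries (red, left) and control libraries (blue, right). Points are libraries with their number and the line is the arithmetic mean of 5. Knockout libraries 4 and 5 lie at the bottom of the first 8 panels, and among the other libraries in the panels of Nfkb1 and Relb.

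Tnf encodes the cytokine TNF, which macrophages release early in inflammation and which activates NF-kB in neighbouring cells. Its level was 162, 162, 202, 38.8 and 53.6 CPM in Ccr2 knockout libraries 1 to 5, and 80.8, 92.2, 149, 112 and 128 CPM in control libraries 1 to 5. Knockout libraries 1 to 3 were above every control library and knockout libraries 4 and 5 below every one, so the group means came out close together. They were 123.8 ± 72.9 CPM in Ccr2 knockout and 112 ± 27.3 CPM in control libraries (log2 fold change 0.14, SE 0.41, edgeR adjusted p = 0.895). Without knockout libraries 4 and 5 the log2 fold change was 0.66 (SE 0.20, unadjusted p = 0.00934), which did not pass after adjustment over the 14963 genes then tested (edgeR adjusted p = 0.264), where 50 genes (0.334%) passed. The sign turned under limma-voom with sample weights (-0.40), with the title number as a block (-0.086) and without knockout library 3 (-0.11).

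Il6 encodes interleukin 6, a cytokine made by macrophages and by many stromal cells, fibroblasts among them. By group mean it was the lowest of the 10 genes per length of transcript in both genotypes, with a range that overlapped that of Cxcl3. Its level was 1.60, 1.52, 7.91, 0.171 and 0.392 CPM in Ccr2 knockout libraries 1 to 5 and 8.52, 8.62, 1.97, 3.64 and 5.71 CPM in control libraries 1 to 5. Knockout libraries 1, 2, 4 and 5 were below every control library, and the groups overlapped through knockout library 3, which stood among the higher control libraries. In knockout libraries 4 and 5 Il6 rested on 7 and 15 counts, with exact Poisson 95% intervals of 0.0688 to 0.353 and 0.219 to 0.646 CPM that cover counting error only. The group means were 2.32 ± 3.19 CPM in Ccr2 knockout and 5.69 ± 2.94 CPM in control libraries (log2 fold change -1.30, SE 0.84, edgeR adjusted p = 0.480). Without knockout libraries 4 and 5 the log2 fold change was -0.62 (SE 0.67, edgeR adjusted p = 0.796). Without knockout library 3 it was -2.62 (edgeR adjusted p = 0.0847), and limma-voom with all libraries gave -2.54 (adjusted p = 0.120).

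Fibroblast RNA also varied between the libraries. Summed levels of 14 fibroblast marker genes, among them Col1a1 and Pdgfra, were 746, 368, 3737, 693 and 540 CPM in Ccr2 knockout libraries 1 to 5 and 2334, 1394, 787, 1090.0 and 2487 CPM in control libraries 1 to 5. None of the 14 was at 0 in any library. Knockout library 3 was the highest of its group for both Il6 and the fibroblast sum, and control library 3 the lowest of its group for both, whereas in knockout libraries 4 and 5, lowest for Il6, the fibroblast sum was above that of knockout library 2. The part of fibroblast RNA in the level of Il6 was not tested.

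Cxcl1, Cxcl2 and Cxcl3 encode chemokines that attract neutrophils through the receptor Cxcr2. Cxcl2 was the most abundant of the 3 per length of transcript, with 488, 339, 716, 26.7 and 42.2 CPM in Ccr2 knockout libraries 1 to 5 and 367, 418, 399.8, 428 and 1227 CPM in control libraries 1 to 5. Knockout libraries 1 to 3 lay within the range of the control libraries or just under it, knockout libraries 4 and 5 far under it, and control library 5 stood above all others. The group means were 322 ± 295 CPM in Ccr2 knockout and 568 ± 369 CPM in control libraries (log2 fold change -0.82, SE 0.78, edgeR adjusted p = 0.642), and without knockout libraries 4 and 5 the log2 fold change was -0.13 (SE 0.44). It was -1.34 without knockout library 3, -0.50 and -0.53 without knockout library 4 or 5, -0.31 without control library 5 and -2.06 with limma-voom, and did not pass in any of these.

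Cxcl1 had 106, 122, 217, 9.80 and 12.8 CPM in Ccr2 knockout libraries 1 to 5 and 63.0, 76.3, 70.4, 68.2 and 186 CPM in control libraries 1 to 5. As for Tnf, knockout libraries 1 to 3 were above most control libraries, here above at least 4 of 5, and knockout libraries 4 and 5 were below all of them. The means of 93.6 ± 86.2 CPM in Ccr2 knockout and 92.8 ± 52.4 CPM in control libraries were therefore nearly the same (log2 fold change 0.01, SE 0.73, edgeR adjusted p = 0.996), and its sign turned under 10 of 22 alternatives. Without knockout libraries 4 and 5 the log2 fold change was 0.69 (SE 0.40, edgeR adjusted p = 0.593).

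Cxcl3 varied most of the 10 genes, by 238-fold among Ccr2 knockout and 64.4-fold among control libraries. It had 11.4, 0.770, 34.9, 0.147 and 0.209 CPM in Ccr2 knockout libraries 1 to 5 and 27.2, 15.5, 0.772, 16.5 and 49.7 CPM in control libraries 1 to 5. Unlike Cxcl1 and Cxcl2 it was also low in knockout library 2 and control library 3, and in knockout libraries 4 and 5 it rested on 6 and 8 counts. The log2 fold change was -1.21 (SE 1.30, edgeR adjusted p = 0.688), and -0.47 (SE 1.16) without knockout libraries 4 and 5. It was -2.80 without knockout library 3, -0.65 without control library 5 and -3.70 with limma-voom, and did not pass in any of these. The 3 chemokine genes are related in sequence, and since the deposited counts list 0 reads aligned to several places in all libraries, reads that they share were not counted and their levels are uncertain to that extent.

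Neutrophil markers were low in the same libraries as Cxcl3. The summed level of 18 neutrophil genes was 346, 158, 282, 164 and 186 CPM in Ccr2 knockout libraries 1 to 5 and 612, 589.8, 221, 335 and 941 CPM in control libraries 1 to 5. S100a8, a defining neutrophil gene, had 30.8, 0.770, 17.6, 0.269 and 0 CPM in Ccr2 knockout and 67.9, 44.9, 2.49, 16.1 and 119 CPM in control libraries 1 to 5. For both S100a8 and Cxcl3, knockout libraries 2, 4 and 5 and control library 3 were the lowest of their groups. The same held for Il6, though there knockout library 2 (1.52 CPM) was close to knockout library 1 (1.60 CPM). Cxcl1, Cxcl2 and Tnf showed no drop of the size seen for S100a8 and Cxcl3 in knockout library 2 or control library 3. Cxcr2, the receptor of these chemokines and itself a neutrophil gene, had 3.03, 0.120, 1.42, 0 and 0 CPM in Ccr2 knockout and 4.06, 4.30, 0.0572, 0.301 and 3.40 CPM in control libraries (edgeR adjusted p = 0.644). Camp, Ngp, Elane, Mpo, Ly6g and Stfa2l1 were also at 0 in both knockout libraries 4 and 5, and each of them was at 0 in at least 1 control library as well. Of the 14 neutrophil genes tested, 14 had negative fold changes (median -1.96), against 7258 of all 14374 genes. By edgeR or limma-voom 0 passed, and by DESeq2 4, where 799 of all genes passed. At an unadjusted edgeR p below 0.05, 7 were lower, as were 1047 of all genes (7.28%). Knockout libraries 4 and 5 were the lowest pair in 9, against 1011 of all genes (7.03%). The part of neutrophil RNA in the levels of Cxcl3 and Il6 was not tested. In bulk RNA fewer cells of a type and less RNA per cell cannot be told apart.

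Nfkbia, which encodes the inhibitor IkB alpha, was the most abundant of the 10 genes per length of transcript in both genotypes. It had 655, 692, 818, 135 and 136 CPM in Ccr2 knockout libraries 1 to 5 and 715, 728, 651, 594 and 1135 CPM in control libraries 1 to 5. Knockout libraries 1 to 3 lay within the control range, and knockout libraries 4 and 5 were nearly equal to each other and below every other library. The group means were 487 ± 327 CPM in Ccr2 knockout and 765 ± 214 CPM in control libraries (log2 fold change -0.65, SE 0.49, edgeR adjusted p = 0.550). Without knockout libraries 4 and 5 the log2 fold change was -0.07 (SE 0.21, edgeR adjusted p = 0.944), without library 4 or 5 alone -0.40 and -0.41, and with limma-voom and all libraries -1.33 (adjusted p = 0.1485).

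Nfkbiz had 493, 562, 334, 77.7 and 108 CPM in Ccr2 knockout libraries 1 to 5 and 355, 317, 496, 438 and 558 CPM in control libraries 1 to 5. Tnfaip3, whose product A20 removes and edits ubiquitin chains that carry the signal to IKK, had 524, 539.5, 525, 75.3 and 98.4 CPM in Ccr2 knockout libraries 1 to 5 and 403, 405, 546, 521 and 956 CPM in control libraries 1 to 5. Both resembled Nfkbia in that knockout libraries 1 to 3 lay within the control range, or just above it for Nfkbiz in library 2, and knockout libraries 4 and 5 lay below all others. The log2 fold change was -0.46 (SE 0.48, edgeR adjusted p = 0.682) for Nfkbiz and -0.68 (SE 0.54, edgeR adjusted p = 0.571) for Tnfaip3. Without knockout libraries 4 and 5 these were 0.11 (SE 0.23) and -0.09 (SE 0.28), so the sign of Nfkbiz turned. With limma-voom they were -1.14 (adjusted p = 0.185) and -1.40 (adjusted p = 0.159).

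The subunit genes did not share the pattern. Nfkb1, which encodes the precursor of the p50 subunit, had 208, 182, 139, 171 and 215 CPM in Ccr2 knockout libraries 1 to 5 and 222, 206, 199.7, 208 and 162 CPM in control libraries 1 to 5. Relb, a subunit of the slower noncanonical branch, had 60.1, 50.6, 55.8, 62.9 and 61.6 CPM in Ccr2 knockout libraries 1 to 5 and 55.0, 50.7, 58.7, 56.9 and 75.4 CPM in control libraries 1 to 5. Knockout libraries 4 and 5 lay inside the spread of the other libraries for both genes, and for Relb they were the highest of their group. The log2 fold change was -0.13 (SE 0.13, edgeR adjusted p = 0.678) for Nfkb1 and -0.03 (SE 0.11, edgeR adjusted p = 0.926) for Relb. Their ranges were also the narrowest, 1.55-fold among Ccr2 knockout and 1.37-fold among control libraries for Nfkb1, and 1.24-fold among Ccr2 knockout and 1.49-fold among control libraries for Relb.

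The distance of knockout libraries 4 and 5 from the control level was then read gene by gene. Taken as log2 CPM minus the mean of the control libraries, the cytokines stood at -5.97 to -1.50 in knockout library 4 and at -5.58 to -1.03 in knockout library 5. Cxcl3 was the lowest of them and Tnf the nearest to the control mean. The feedback inhibitors stood closer together, at -2.47 (Nfkbia), -2.45 (Nfkbiz) and -2.83 (Tnfaip3) in library 4, and at -2.45, -1.97 and -2.45 in library 5 in the same order. In the 3 other knockout libraries the feedback inhibitors stayed between -0.34 and 0.41, a range that lies within the -0.42 to 0.83 of the control libraries. Nfkb1 and Relb stayed between -0.22 and 0.12 in libraries 4 and 5.

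**Figure D2:**
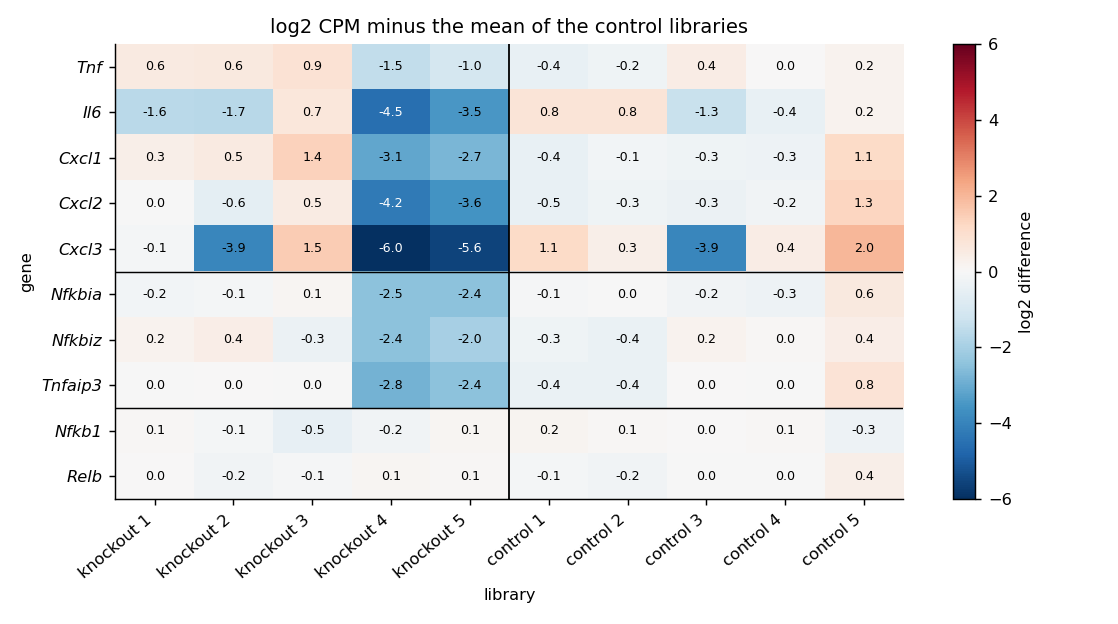
Log2 CPM of each gene (rows) in each library (columns) minus the mean of the 5 control libraries, with Ccr2 knockout libraries at the left and blue for lower. The cytokines and feedback inhibitors are blue in the columns of knockout libraries 4 and 5, from -1.0 for Tnf to -6.0 for Cxcl3, and Cxcl3 is also blue in knockout library 2 and control library 3 (-3.9 each).

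Setting cytokines against feedback inhibitors within each library asks whether their balance moved with the genotype. The mean log2 CPM of the 5 cytokines minus that of the 3 feedback inhibitors was -3.66, -4.61, -2.43, -4.77 and -4.48 in Ccr2 knockout libraries 1 to 5, and -3.13, -3.11, -4.59, -3.49 and -3.13 in control libraries 1 to 5. Knockout libraries 4 and 5 were not alone at the low end, since knockout library 2 and control library 3, where Il6 and Cxcl3 were low, lay beside them. The highest values, in knockout library 3 and in control libraries 1, 2 and 5, came from both genotypes.

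Taken gene by gene, Tnf stood higher against Nfkbia and Tnfaip3 in Ccr2 knockout libraries, and overlapped against Nfkbiz. The log2 ratio of Tnf to Nfkbia was -2.02, -2.09, -2.01, -1.79 and -1.35 in Ccr2 knockout libraries 1 to 5, and -3.15, -2.98, -2.13, -2.41 and -3.15 in control libraries 1 to 5. All 5 knockout libraries, the 4th and 5th included, were above all 5 control libraries, narrowly so against control library 3. The mean was -1.85 ± 0.30 in Ccr2 knockout and -2.76 ± 0.47 in control libraries (SD, n = 5 each). The ratio of Tnf to Tnfaip3 also did not overlap, at -1.73 to -0.88 in Ccr2 knockout and -2.90 to -1.87 in control libraries. These were 2 of the 15 ratios of a cytokine to a feedback gene that were looked at, chosen after their values were seen, and they carry no test. Both hold Tnf, so they are not independent. How often ratios of other gene pairs separate the genotypes was not counted. The ratio of Tnf to Nfkbiz overlapped, at -1.79 to -0.72 in Ccr2 knockout and -2.13 to -1.73 in control libraries.

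**Figure D3:**
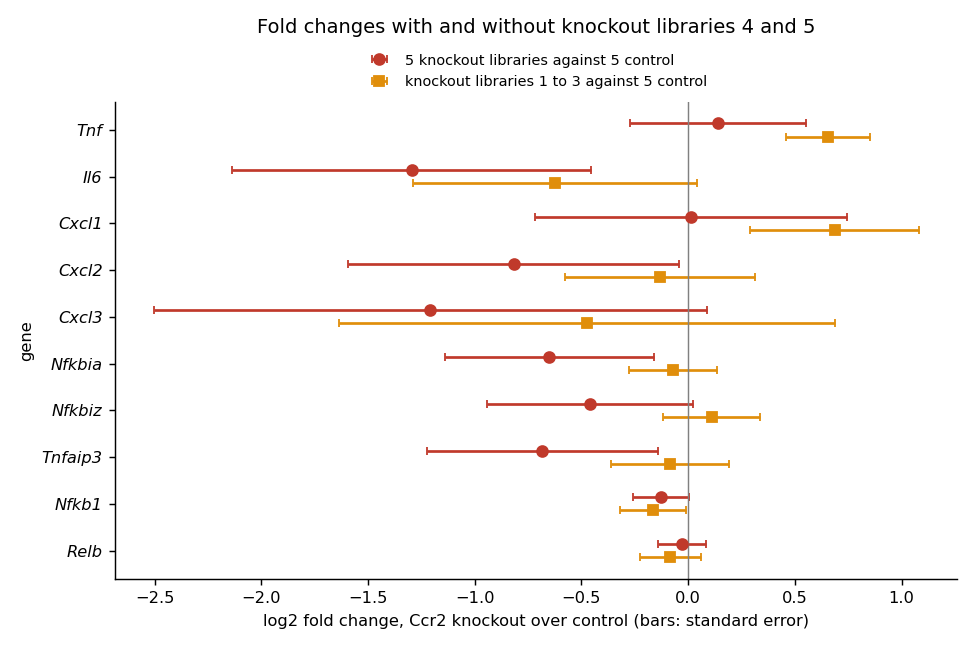
Log2 fold change of each gene, Ccr2 knockout over control, with its standard error as a bar, from all 5 knockout libraries (red circles) and from knockout libraries 1 to 3 (orange squares), each against 5 control libraries. Leaving out knockout libraries 4 and 5 moved all 8 cytokine and feedback genes upward, as it had to, since these libraries were the lowest for each of them. Tnf moved to 0.66 and Nfkbia to -0.07, against 0.14 and -0.65 with them. For Nfkb1 (-0.13 and -0.16) and Relb (-0.03 and -0.08), where they were not the lowest pair, the fold change moved little.

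Per kilobase of exon, the order of the genes was much the same in both genotypes. In Ccr2 knockout libraries it was Nfkbia (303 ± 203 CPM per kb), Cxcl2 (156 ± 143), Tnf (75.5 ± 44.5), Nfkbiz (62.8 ± 43.7), Cxcl1 (49.9 ± 46.0), Tnfaip3 (48.8 ± 33.6), Nfkb1 (15.2 ± 2.54), Relb (15.0 ± 1.29), Cxcl3 (2.71 ± 4.29) and Il6 (0.955 ± 1.31). Neighbours in that order overlapped in range over the libraries except Relb and Cxcl3. In control libraries it was Nfkbia (475 ± 133 CPM per kb), Cxcl2 (275 ± 178.5), Nfkbiz (86.3 ± 19.7), Tnfaip3 (78.4 ± 31.5), Tnf (68.5 ± 16.7), Cxcl1 (49.5 ± 27.9), Nfkb1 (16.5 ± 1.89), Relb (15.3 ± 2.43), Cxcl3 (6.27 ± 5.18) and Il6 (2.34 ± 1.21). There the ranges of neighbours overlapped except between Cxcl2 and Nfkbiz and between Cxcl1 and Nfkb1. Tnf thus stood above Nfkbiz and Tnfaip3 in the knockout order and below both in the control order, in each case with overlapping ranges.

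Beyond the 10 genes, lists of other parts of the pathway were counted. Across them 3 genes passed the threshold, against 203 of all 14374 genes (1.41%). They were 1 of 25 receptors and adaptors, 1 of 18 other negative regulators and 1 of 33 target genes. In the other pathway lists, with 7, 12, 9 and 5 tested genes, 0 passed. Some genes are in more than 1 list. All 3 were lower in Ccr2 knockout libraries, where 78 of all genes (0.543%) were called lower. The number of genes tested is given with each list below. Counts there of genes with knockout libraries 4 and 5 lowest stand beside 1011 of all genes (7.03%). Tlr1, a Toll-like receptor that pairs with Tlr2 to sense bacterial lipoproteins, had 68.1, 93.0, 53.7, 78.7 and 80.8 CPM in Ccr2 knockout and 108, 126, 117, 119.7 and 109 CPM in control libraries 1 to 5 (log2 fold change -0.63, SE 0.13, edgeR adjusted p = 0.0458). Sigirr, an inhibitory receptor of the IL-1 receptor family, had 1.27, 2.38, 1.57, 1.61 and 1.78 CPM in Ccr2 knockout and 2.79, 5.26, 4.52, 4.85 and 3.62 CPM in control libraries (-1.29, SE 0.24, edgeR adjusted p = 0.0270). Malt1, a protease that carries signals from immune receptors to IKK, had 25.2, 25.9, 18.0, 14.6 and 17.3 CPM in Ccr2 knockout and 42.8, 59.0, 33.8, 30.1 and 46.7 CPM in control libraries (-1.07, SE 0.21, edgeR adjusted p = 0.0372). All 5 knockout libraries were below all 5 control libraries for each of these genes, and libraries 4 and 5 did not stand apart for Tlr1 or Sigirr. None of the 3 calls was kept when knockout libraries 4 and 5 were left out together (edgeR adjusted p = 0.155, 0.155 and 0.205). The log2 fold changes were then -0.68 for Tlr1, -1.26 for Sigirr and -0.87 for Malt1, with fewer libraries in the test, and they kept their sign under every alternative run. Single libraries also decided them. Tlr1 did not pass without knockout library 1, 4 or 5 or any 1 control library (edgeR adjusted p up to 0.124), Sigirr without knockout library 1, 4 or 5 or control library 2, 3 or 4 (up to 0.0796), and Malt1 without knockout library 3, 4 or 5 or control library 1, 2, 3 or 5 (up to 0.0968).

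Among 7 other subunits and IkB proteins 0 passed by edgeR, DESeq2 or limma-voom, 2 had an unadjusted edgeR p below 0.05, both lower in Ccr2 knockout libraries as were 1047 of all genes (7.28%). Of the 7, 6 had negative log2 fold changes (median -0.37), and 5 had knockout libraries 4 and 5 as the lowest pair. Nfkbie, which encodes IkB epsilon, had 74.1, 82.4, 52.2, 50.2 and 43.5 CPM in Ccr2 knockout and 80.2, 87.6, 71.1, 75.1 and 118 CPM in control libraries 1 to 5 (edgeR adjusted p = 0.250). Nfkb2, the precursor of the p52 subunit that partners Relb, averaged 93.4 ± 9.01 CPM in Ccr2 knockout and 120.5 ± 23.0 CPM in control libraries (edgeR adjusted p = 0.198), and Nfkbib, for IkB beta, 42.1 ± 8.31 CPM in Ccr2 knockout and 53.0 ± 8.52 CPM in control libraries (edgeR adjusted p = 0.332). Of 33 tested target genes of macrophages 1 (Malt1) passed, 25 had negative fold changes (median -0.25), and 18 had knockout libraries 4 and 5 lowest. Gadd45b, a stress-induced regulator of kinase signalling, had 227, 270.0, 205, 69.7 and 64.0 CPM in Ccr2 knockout and 349, 368, 298, 251 and 496 CPM in control libraries (edgeR adjusted p = 0.226). Ccl5, a chemokine for T cells, had 7.86, 42.5, 17.3, 44.0 and 20.9 CPM in Ccr2 knockout and 70.8, 80.1, 41.7, 45.7 and 43.9 CPM in control libraries (edgeR adjusted p = 0.244). Gadd45b was lowest in knockout libraries 4 and 5, whereas Ccl5 was lowest in knockout libraries 1 and 3.

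Next came the genes that carry the signal to NF-kB. Of 12 IKK subunits and upstream kinases 0 passed by edgeR, DESeq2 or limma-voom, 0 had an unadjusted edgeR p below 0.05, 7 had negative fold changes (median -0.06) and 1 had knockout libraries 4 and 5 lowest. Tab1, an adaptor of the kinase TAK1 and the gene with the smallest p, averaged 37.4 ± 9.17 CPM in Ccr2 knockout and 28.6 ± 4.97 CPM in control libraries (log2 fold change 0.38, edgeR adjusted p = 0.342), and was highest of all in knockout libraries 4 and 5 (46.4 and 44.7 CPM). Map3k8, the kinase Tpl2 and the 1 gene with libraries 4 and 5 lowest, had 87.4, 49.5, 49.0, 31.1 and 31.3 CPM in Ccr2 knockout and 86.8, 66.9, 66.3, 59.7 and 73.4 CPM in control libraries (edgeR adjusted p = 0.380). Ikbkb, the catalytic subunit IKK beta, averaged 114 ± 6.19 CPM in Ccr2 knockout and 123.5 ± 4.81 CPM in control libraries (edgeR adjusted p = 0.455). Of 25 receptors and adaptors 1 passed (Tlr1), 19 had negative fold changes (median -0.12) and 3 had libraries 4 and 5 lowest. The adaptor Myd88, which links Toll-like receptors to the kinases, had 183, 144, 135, 164 and 129 CPM in Ccr2 knockout and 256, 276, 179, 181 and 196 CPM in control libraries 1 to 5 (log2 fold change -0.53, edgeR adjusted p = 0.124), and only knockout library 1 reached into the control range. The kinase Irak2 averaged 50.6 ± 6.85 CPM in Ccr2 knockout and 68.1 ± 14.1 CPM in control libraries (-0.43, edgeR adjusted p = 0.180).

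Brakes other than the 3 feedback inhibitors included 1 gene that passed. Of 18 other negative regulators it was Sigirr, and 15 had negative fold changes with a median of only -0.07. At an unadjusted edgeR p below 0.05, 6 of the 18 were lower, as were 1047 of all 14374 genes (7.28%). Knockout libraries 4 and 5 were the lowest pair in 5, against 1011 of all genes (7.03%). N4bp1, a suppressor of NF-kB signalling, averaged 68.0 ± 12.6 CPM in Ccr2 knockout and 94.7 ± 7.10 CPM in control libraries (edgeR adjusted p = 0.0950), and DESeq2 and limma-voom called it lower. The ubiquitin ligase gene Itch averaged 58.2 ± 5.57 CPM in Ccr2 knockout and 70.3 ± 7.87 CPM in control libraries (edgeR adjusted p = 0.232). Of 9 factors that control the decay of cytokine mRNA 0 passed by edgeR or DESeq2 and 1 (Rc3h2) by limma-voom, and 8 had negative fold changes (median -0.37). Among these 9, 2 were lower at an unadjusted edgeR p below 0.05 (7.28% of all genes). Libraries 4 and 5 were the lowest pair in 3 (7.03% of all genes). The smallest p were those of Rc3h2 (log2 fold change -0.47, edgeR adjusted p = 0.133), Zfp36l2 (-0.42, 0.242) and Rc3h1 (-0.37, 0.376). Zfp36, which encodes tristetraprolin, a protein that binds and destabilises Tnf mRNA, had 1019, 1431, 1066, 265 and 256 CPM in Ccr2 knockout and 1180.0, 1164, 1367, 1402 and 2568 CPM in control libraries 1 to 5. The receptors of the 5 cytokines were 5 tested genes of 7 listed, and 0 of them passed by edgeR, DESeq2 or limma-voom, or had an unadjusted edgeR p below 0.05. Il6ra, the IL-6 receptor, averaged 116 ± 11.9 CPM in Ccr2 knockout and 136 ± 20.6 CPM in control libraries (edgeR adjusted p = 0.390). Tnfrsf1a, the main TNF receptor, averaged 283 ± 49.0 CPM in Ccr2 knockout and 268 ± 43.5 CPM in control libraries (edgeR adjusted p = 0.838).

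**Figure D4:**
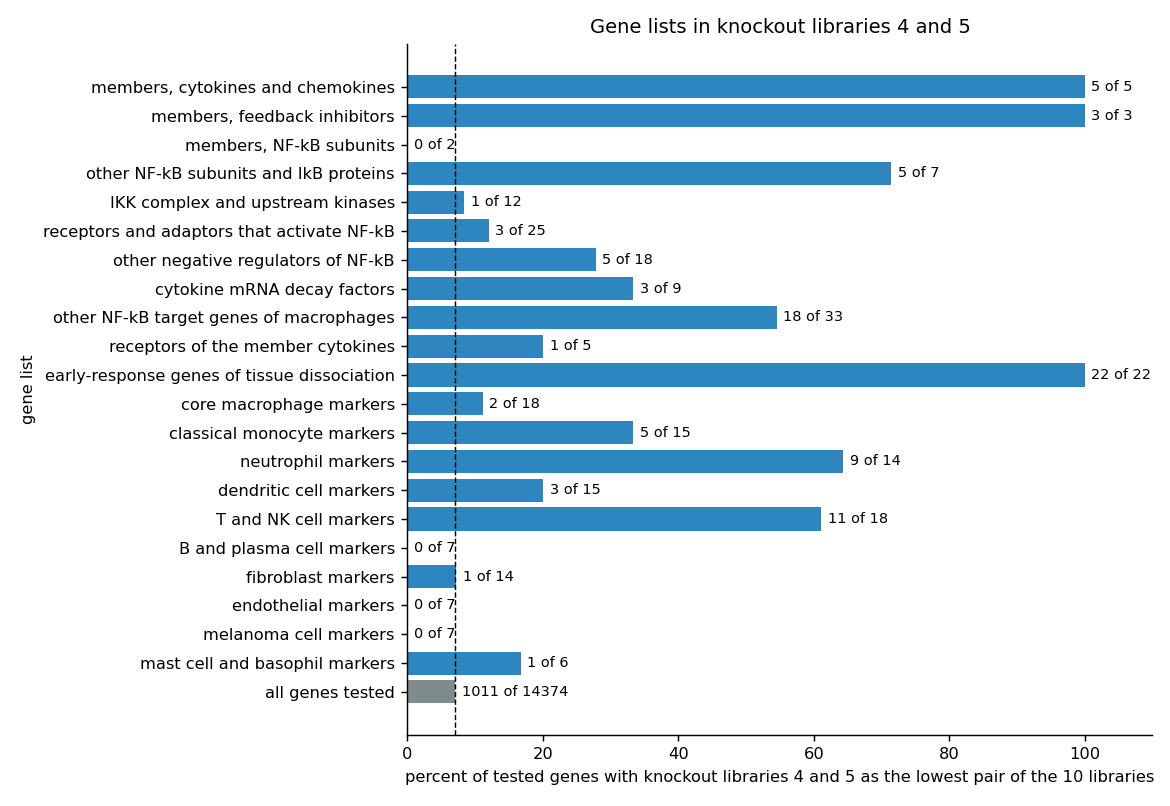
Percent of the tested genes of each list for which Ccr2 knockout libraries 4 and 5 were the lowest pair of all 10 libraries, with counts beside the bars, the dashed line being the 7.03% of all genes. The cytokines (5 of 5), feedback inhibitors (3 of 3) and early-response genes (22 of 22) reach 100%, the NF-kB subunits and B cell, endothelial and melanoma markers 0.

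Early-response genes, the fast transcription factors and stress genes such as Fos, Jun and Egr1 that are known to rise while tissue is taken apart for sorting, moved with the cytokines and feedback inhibitors. All 22 of 22, Zfp36 among them, had knockout libraries 4 and 5 as the lowest pair. Their summed level was 8673, 10010, 9512, 2771 and 2713 CPM in Ccr2 knockout libraries 1 to 5 and 10380, 11410, 10620, 10440 and 17770 CPM in control libraries 1 to 5. In this sum all 5 knockout libraries were below all 5 control libraries, narrowly for library 2 and by far for libraries 4 and 5. Among the 22 single genes the groups separated for 0, against 676 of all 14374 genes (4.7%). Of the 22 genes 0 passed by edgeR, DESeq2 or limma-voom, and 20 had negative fold changes (median log2 fold change -0.83). At an unadjusted edgeR p below 0.05, 8 were lower, as were 1047 of all genes (7.28%). Dnajb1, a heat shock cochaperone, averaged 64.4 ± 7.08 CPM in Ccr2 knockout and 105.0 ± 47.6 CPM in control libraries (edgeR adjusted p = 0.222). Junb, a subunit of the factor AP-1, had 948, 1395, 1039, 469 and 379 CPM in Ccr2 knockout and 1250, 1386, 1418, 1381 and 2756 CPM in control libraries (edgeR adjusted p = 0.239). Btg2, an antiproliferative gene, had 227, 192, 146, 47.9 and 57.9 CPM in Ccr2 knockout and 271, 307, 204, 208 and 373 CPM in control libraries (edgeR adjusted p = 0.264). Whether the early response at tissue dissociation took part in the level of the 8 NF-kB genes was not tested. The labels name no dissociation or sorting day.

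Several of these genes were also among those whose levels ran most like the 8. Over the 10 libraries the 5 genes most like the mean profile of the cytokines were Egr1, Per1, Jun, Klf6 and Maff, and those most like the feedback inhibitors were Nfkbid, Nr4a1, Klf6, Zfp36 and Nr4a2. All of them had knockout libraries 4 and 5 lowest, which by itself brings a high likeness. Over the 8 other libraries Pearson's r with the cytokine profile was 0.86 for Egr1, 0.81 for Per1, 0.68 for Jun, 0.56 for Klf6 and 0.66 for Maff. With the feedback profile it was 0.92 for Nfkbid, 0.88 for Nr4a1, 0.75 for Klf6, 0.86 for Zfp36 and 0.89 for Nr4a2. These are descriptions over libraries that share a sort, a sequencing run or an animal to an unknown extent, and no p is given. Nfkbid, which encodes the nuclear inhibitor IkB NS, had 104, 98.1, 92.7, 16.8 and 18.1 CPM in Ccr2 knockout and 59.2, 67.0, 105, 91.4 and 155 CPM in control libraries 1 to 5.

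**Figure D5:**
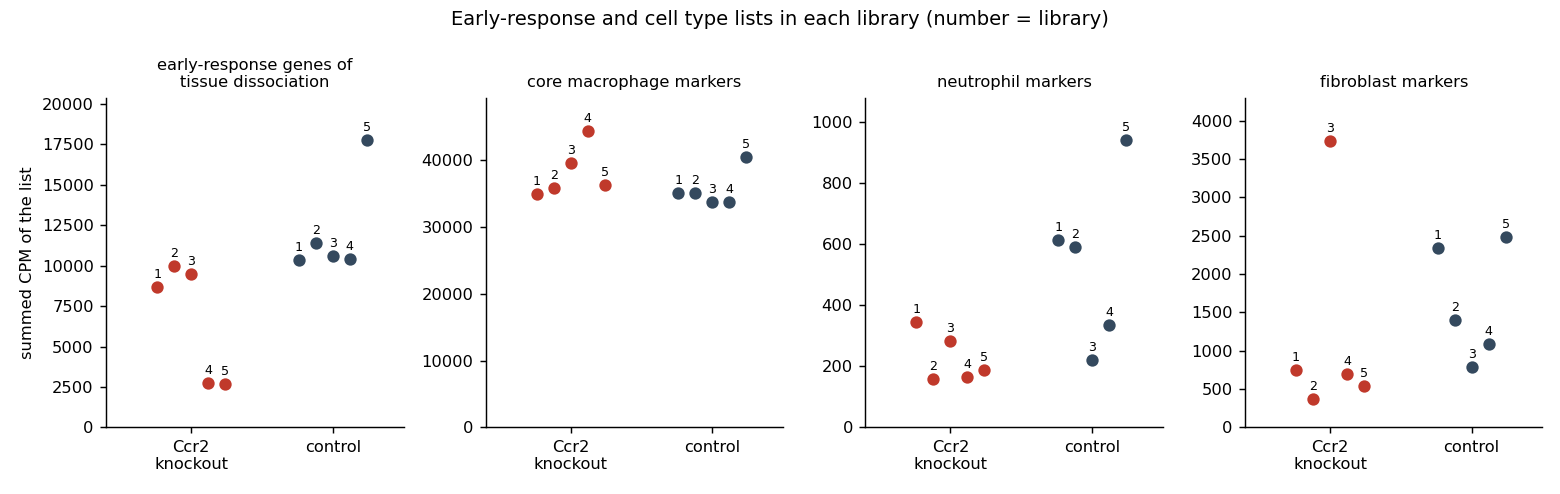
Summed CPM of 4 gene lists in each library, Ccr2 knockout libraries in red at the left and control libraries in blue at the right, with the library number beside each point. The early-response sum is lowest in knockout libraries 4 and 5 (2771 and 2713 CPM), while the core macrophage sum there (44290 and 36220 CPM) lies within or above the range of the others, and the fibroblast sum is highest in knockout library 3 (3737 CPM).

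Other measures of knockout libraries 4 and 5 were as follows. They held 42140054 and 37660479 counts in genes, against 34639808 to 43360206 in the other libraries. Their reverse-strand shares were 96.29% and 96.23%, that of library 5 being the lowest of all 10. Unmapped reads were 6.87% and 7.39%, and reads that met no gene 3.64% and 3.89%, with library 4 the lowest of all 10 in both. Core macrophage genes summed to 44290 and 36220 CPM there, within or above the range of the other 8 libraries, and 2 of the 18 had these libraries as the lowest pair. The part of these measures in the levels of the NF-kB genes was not tested.

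Summed T and NK cell markers were 193, 297, 174, 148 and 91.0 CPM in Ccr2 knockout and 234, 273, 101, 121 and 122 CPM in control libraries, and 11 of the 18 tested had libraries 4 and 5 lowest. Of these 18, 17 had negative fold changes (median -1.24), against 7258 of all 14374 genes. At an unadjusted edgeR p below 0.05, 3 were lower, as were 1047 of all genes (7.28%). Cd4, which macrophages can also carry, was the 1 that passed. It went the other way and was higher in Ccr2 knockout libraries (log2 fold change 1.13, edgeR adjusted p = 0.0223). Of the 15 classical monocyte markers 7 passed as lower in Ccr2 knockout libraries (among them Chil3, Plac8 and Ly6c2), against 78 of all genes (0.543%), and 5 had libraries 4 and 5 lowest. Their summed level overlapped, at 2874 to 5867 CPM in Ccr2 knockout and 4073 to 10150 CPM in control libraries. The dendritic cell marker Dpp4 passed as lower (-2.31, edgeR adjusted p = 0.0297) and the melanoma marker Trpm1 as higher (1.96, edgeR adjusted p = 0.0270). Trpm1 was not typical of its list, where 5 of 7 tested genes had negative fold changes. Summed melanoma markers averaged 72.5 ± 17.2 CPM in Ccr2 knockout and 87.6 ± 12.4 CPM in control libraries. The part of these cells in the levels of the NF-kB genes was not tested.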

How the data were processed

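Macrophage RNA was measured in 10 libraries, 5 Ccr2 knockout and 5 control. The authors deposited whole-number read counts per gene. The submitters' processing notes name STAR and GRCm39, with the STAR version and the annotation not given in the sources used here. Reverse-strand counts were taken, since the kit is directional per the labels. Rows that name no gene were left out (unmapped reads 6.87% to 8.07%). A combined table with unnamed columns was not used. After filterByExpr (minimum count 10) and TMM scaling, edgeR 4.0.16 (R 4.3.3) tested each gene by its quasi-likelihood F-test, called at a Benjamini-Hochberg adjusted p under 0.05. The script was tested on simulated data. The SE is the log2 fold change over the square root of F. Log2 CPM used a prior count of 2. Lengths are exons of GENCODE M21 on GRCm38. DESeq2 1.42.0, limma 3.58.1 and other settings were alternatives. Figures were drawn with matplotlib 3.10.9. The genes and lists were chosen with earlier results of these data known. Named besides them were Ccr2, list genes past the threshold, up to 3 genes per pathway and early-response list with the smallest p, genes that define a cell type or were at 0, and the 5 most alike genes per profile. Not every gene this rule names is reported here.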

Additional observations from a re-analysis of the deposited data

Results flagged for a closer look

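Cxcl1 and Cxcl2 each had 1 control library far above the other 4 of its group. Cxcl1 stood at 186 CPM in control library 5, against 63.0 to 76.3 CPM in control libraries 1 to 4, a gap of 0.82 of the group's range on the log2 scale. Cxcl2 stood at 1227 CPM in control library 5, against 367 to 428 CPM in control libraries 1 to 4, a gap of 0.87 of that range. Cxcl3 had a library far below the others, with 0.772 CPM in control library 3 against 15.5 to 49.7 CPM in the other control libraries, a gap of 0.72 of that range. The limit for 5 samples is 0.71. Of 22 groups looked at (the 10 genes and Ccr2 in both genotypes), chance flags about 1 in 20.

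Control library 5 was above the control mean for 9 of the 10 genes. It also had the highest sums of early-response genes (17770 CPM) and neutrophil markers (941 CPM). Without it the median log2 fold change of the 10 genes was -0.33 in place of -0.55.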

How the results depend on the processing

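Of the 10 genes, 0 passed the threshold in any of 22 alternatives. The number of all genes past it was 203, and was 799 with DESeq2, 446 with limma-voom and sample weights, 55 with the title number as a block, 50 without knockout libraries 4 and 5, 29 with the close control libraries summed, 8 with knockout libraries 4 and 5 summed as well, and 62 to 267 with 1 library left out. The count in the other NF-kB lists was 3, and was 5 with limma-voom, 1 with the block, 0 without knockout libraries 4 and 5, 0 and 0 with libraries summed, and 0 to 3 with 1 library left out. Signs turned for Tnf (-0.40 with limma-voom, -0.086 with the block, -0.11 to 0.38 with 1 library left out) and Cxcl1 (-1.14 with limma-voom, -0.55 with the block, -0.21 with control libraries summed, -0.56 to 0.44 with 1 left out). They also turned for Relb (0.003 with no composition factor, 0.030 with limma-voom, -0.080 to 0.084 with 1 left out) and Nfkbiz (0.11 without knockout libraries 4 and 5), and the cause was not tested. The labels' numbers showed no clear pairing in expression. The correlations of same-numbered libraries were 0.34, 0.08, -0.53, 0.18 and -0.22, and 1 of 5 knockout libraries was most like its own number. Whether same-numbered libraries were collected or sorted together cannot be told from this, since other differences between libraries of a group also enter these correlations.

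The spread within the knockout group limits these tests, with standard errors of 0.41 to 1.30 for the cytokines. Il6 and Cxcl3 rested on 15 or fewer counts in knockout libraries 4 and 5.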
